A study of Mus musculus with 3 samples.

Results

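Skeletal muscle fiber genes were followed through the RNA of prostate tumors from TRAMP mice with and without the histone demethylase gene Phf8. The set holds 44 of the 46095 gene symbols in the count table. They were chosen by name as genes of the sarcomere, of calcium handling and of muscle energy supply, and each was assigned to fast adult fibers (15 genes), slow fibers (9), developmental muscle (3) or both adult fiber types (17). In TRAMP mice the SV40 oncoprotein is expressed from a transgene in the prostatic epithelium. The control group, TRAMP, was wild type for Phf8 and gave 1 library. The knockout group carried the same transgene in Phf8 knockout males from a cross with Phf8 knockout females, and gave 2 libraries, Phf8-KO1 and Phf8-KO2. All mice were 37 weeks old, and each library held RNA pooled in equal mass from 3 mice, so a p-value measured the spread between pools and rested on the 2 Phf8-KO pools. The sources used here do not say which part of each prostate was taken, or whether adjoining tissue was trimmed.

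The deposited values were raw counts per gene. The libraries held 29954020 counts (TRAMP), 26747443 (Phf8-KO1) and 31876182 (Phf8-KO2), so that 3 counts, used as a detection floor, corresponded to 0.104, 0.113 and 0.0905 CPM (counts scaled to TMM library sizes, as in all levels given here). Phf8 itself was measured at 19.4 CPM in TRAMP, 15.0 in Phf8-KO1 and 15.9 in Phf8-KO2 (log2 fold change -0.33, SE 0.25, adjusted p = 0.44 in edgeR's quasi-likelihood test), and these counts, taken over all of Phf8, are no test of a partial deletion. The 4 luminal prostate genes Krt8, Krt18, Hoxb13 and Pbsn, picked after their values were seen, lay between 109 and 1557 CPM across the 3 pools.

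Skeletal muscle contracts when myosin heavy chains of the thick filament pull on actin thin filaments, with titin and nebulin as molecular rulers and the Z-disc and M-band as anchors. Calcium released from the sarcoplasmic reticulum binds troponin and opens the thin filament to myosin. Fast and slow fibers use different genes for the same part, and embryonic and perinatal isoforms are replaced around birth. Normal prostate has a smooth muscle stroma, which uses other isoforms of most of these proteins, and striated muscle lies next to the gland in the urethral sphincter and the pelvic wall.

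The start regions of the genes whose values the results turn on are shown first. RefSeq (GRCm38.p6) gave start windows for 34 of the 44 genes, and the 250 bases before each start were searched for CANNTG (the E-box), for CAGCTG (the E-box form known for binding by MyoD and myogenin), for the MEF2 and CArG motifs by name, and for TATAAA on the coding strand. CAGCTG is one of the sequences that CANNTG covers. The other motifs read the same on both strands. In the 6 windows below, capitals mark CANNTG and MEF2 matches. Pvalb and Myh7 each had another start window, which is not shown. Myh1, Myh4, Pvalb and Atp2a1 are shown as adult fast fiber genes that fell in the Phf8-KO pools, Myh8 as the perinatal neighbor of Myh1 and Myh4, and Myh7 as the slow counterpart, which was not called. Tnnt3, the other gene that fell, had no window.

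Myh1 at chr11:67199852-67200101, plus strand: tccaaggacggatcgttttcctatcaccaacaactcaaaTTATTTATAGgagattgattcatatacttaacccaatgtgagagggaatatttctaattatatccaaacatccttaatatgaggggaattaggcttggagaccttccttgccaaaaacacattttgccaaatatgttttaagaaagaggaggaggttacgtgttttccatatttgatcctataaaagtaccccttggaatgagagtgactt

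Myh4 at chr11:67237562-67237811, plus strand: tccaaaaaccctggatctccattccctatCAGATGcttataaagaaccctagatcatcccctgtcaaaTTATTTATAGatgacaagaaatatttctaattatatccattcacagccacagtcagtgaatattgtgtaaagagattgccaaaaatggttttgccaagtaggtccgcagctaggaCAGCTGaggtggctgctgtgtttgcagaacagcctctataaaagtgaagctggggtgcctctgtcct

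Myh8 at chr11:67276874-67277123, plus strand: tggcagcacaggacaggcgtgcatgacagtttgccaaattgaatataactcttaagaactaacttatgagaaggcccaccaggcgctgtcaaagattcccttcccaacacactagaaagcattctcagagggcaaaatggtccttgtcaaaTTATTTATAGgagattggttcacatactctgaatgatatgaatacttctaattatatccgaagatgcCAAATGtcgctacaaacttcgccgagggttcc

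Pvalb at chr15:78206401-78206650, minus strand: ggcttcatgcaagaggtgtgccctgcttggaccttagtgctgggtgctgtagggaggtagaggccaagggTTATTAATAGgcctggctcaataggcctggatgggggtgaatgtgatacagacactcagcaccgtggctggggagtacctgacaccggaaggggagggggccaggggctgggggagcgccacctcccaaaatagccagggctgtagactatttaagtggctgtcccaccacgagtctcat

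Atp2a1 at chr7:126463074-126463323, minus strand: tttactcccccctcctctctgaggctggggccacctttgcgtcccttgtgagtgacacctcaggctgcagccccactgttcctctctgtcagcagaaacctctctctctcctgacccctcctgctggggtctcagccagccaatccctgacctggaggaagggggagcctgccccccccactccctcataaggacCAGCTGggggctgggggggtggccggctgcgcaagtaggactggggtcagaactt

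Myh7 at chr14:54994627-54994876, minus strand: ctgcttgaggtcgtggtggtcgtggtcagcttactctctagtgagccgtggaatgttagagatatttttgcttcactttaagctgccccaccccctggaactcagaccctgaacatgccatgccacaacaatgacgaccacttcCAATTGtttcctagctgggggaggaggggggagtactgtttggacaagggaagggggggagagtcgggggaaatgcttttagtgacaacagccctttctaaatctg

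Myh1, Myh4 and Myh8 held the same 10 bases, TTATTTATAG, as their MEF2 match, with its first base 211, 182 and 99 bases before the start. Pvalb held TTATTAATAG 180 bases before the start shown, and its other window held no MEF2 match. Myh4 also held CAGCTG 67 bases and a CArG match 104 bases before its start, and Atp2a1 held CAGCTG 55 bases before its start. TATAAA began 32 bases before the start of Myh1 and 31 before that of Myh4. Among the 34 genes with a window, 28 held CANNTG (82.4%, against 69.3% of all 27025 genes with a window), 14 held CAGCTG (41.2% against 14.7%), 6 held a MEF2 match (17.6% against 3.42%), 6 a CArG match (17.6% against 1.62%) and 5 TATAAA (14.7% against 8.94%). The MEF2 matches lay in Myh1, Myh4, Myh8, Pvalb, Ttn and Myom3. The 34 genes had 41 windows, and a gene was counted if any of its windows held the match. A match in these letters is not a measured binding site.

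As a sum, the set was abundant in the TRAMP pool and scarce in both Phf8-KO pools, and there was a wide range among its members. The 44 genes summed to 2980 CPM in TRAMP, to 153 CPM in Phf8-KO1 and to 50.9 CPM in Phf8-KO2, which was 0.288%, 0.0153% and 0.00529% of each library's counts. The TRAMP sum was thus 19.5 times that of Phf8-KO1 and 58.6 times that of Phf8-KO2. In TRAMP, 11 members exceeded 100 CPM and 6 lay under 1 CPM. In both Phf8-KO pools, 20 members had 10 counts or fewer, and 5 (Myh2, Myh8, Myl2, Myl3 and Cox6a2) had 0, whereas Acta1 reached 63.4 CPM and Tnnc2 31.1 CPM in Phf8-KO1 and Mb 17.1 CPM in Phf8-KO2. In bulk RNA, fewer muscle fibers in the tissue and less RNA of these genes per fiber cannot be told apart.

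**Figure D1:**
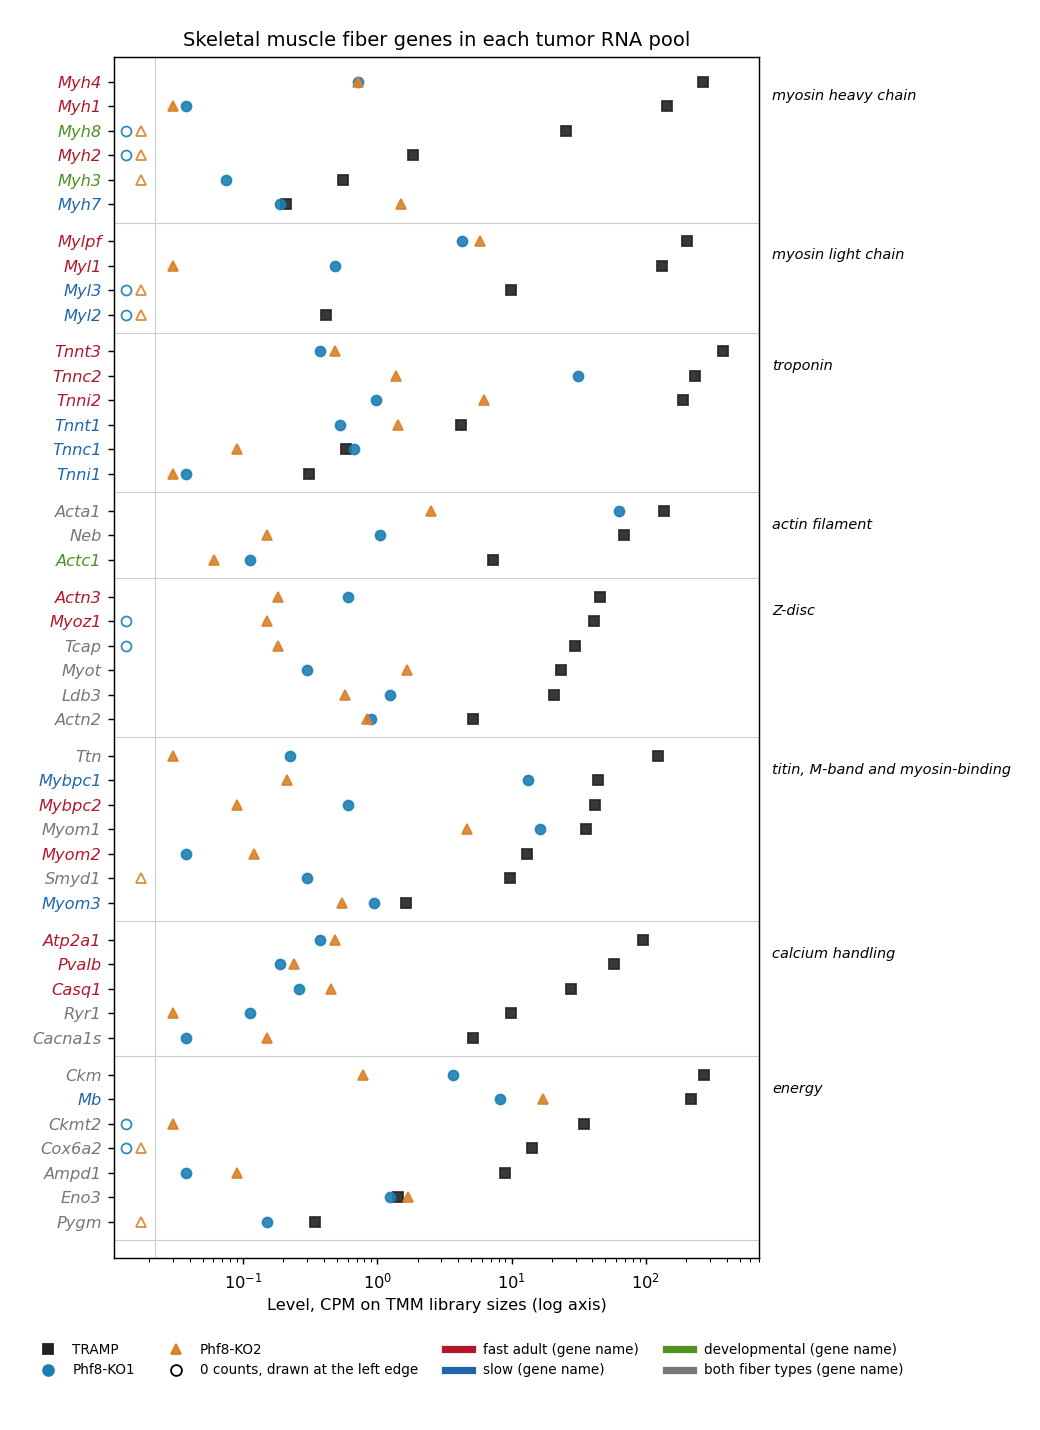
Level of each of the 44 genes (CPM, log axis) in TRAMP (squares), Phf8-KO1 (circles) and Phf8-KO2 (triangles), grouped by role, with gene names colored by fiber type and open symbols for 0 counts. For 41 genes both Phf8-KO symbols lie to the left of the TRAMP square, and the exceptions are Myh7, Tnnc1 and Eno3.

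Calls required a more than 2-fold difference in either direction with an adjusted p under 0.05. In edgeR's quasi-likelihood test (Benjamini-Hochberg adjusted over all genes), Myh1, Myh4, Tnnt3, Atp2a1 and Pvalb fell and no member rose. Over all 18216 genes tested, 7 (0.0384%) were called lower and 0 (0%) higher. No member was higher at an unadjusted p under 0.05 either, whereas 31 of the 41 members tested were lower at that level, against 12.2% of all genes tested. A further 22 members had an adjusted p under 0.11. The smallest of these, 0.101, was also that of genes outside the set, Ube2c, Hbb-bs and Col1a1 among them. The share of all genes under 0.11 was not counted. DESeq2 called 29 members lower and 0 higher (lower calls over all genes with a count, 2.9%). The shares of all genes that DESeq2 called higher, or that were higher at an unadjusted p under 0.05, were not counted. DESeq2 gave no adjusted p to 5 members and to 9488 of the 25757 genes with a count, which could not be called. The quasi-likelihood test on unfiltered counts called 32 members lower (3.32% of all genes with a count). By contrast, limma-voom and a filter at a mean CPM of at least 1 each left 0 members called. The filter used kept 41 members, 17 of which passed through the TRAMP pool alone. Calls and unadjusted p-values among those 17 could hardly go the other way. The 31 members lower at an unadjusted p under 0.05 include genes of those 17, Myh1 among them.

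Without any test, 41 of the 44 genes were lower in each Phf8-KO pool than in TRAMP, against 43% of all 25757 genes with a count, and 41 were more than 2-fold lower, against 21.8%. Only Myh7 was more than 2-fold higher among the members. The median log2 fold change of the set was -6.47, or -6.12 with genes at 0 placed at their bound (3 counts over both Phf8-KO pools), and the median of all genes with a count was 0.01. By the ratio of TRAMP to pooled Phf8-KO levels, or its bound, 20 members lay over 100-fold, 12 between 10-fold and 100-fold and 12 at or under 10-fold. Those 12 were 7 slow genes, with Myl2 placed by its bound, and 5 genes of both fiber types, and no fast adult gene was among them.

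**Figure D2:**
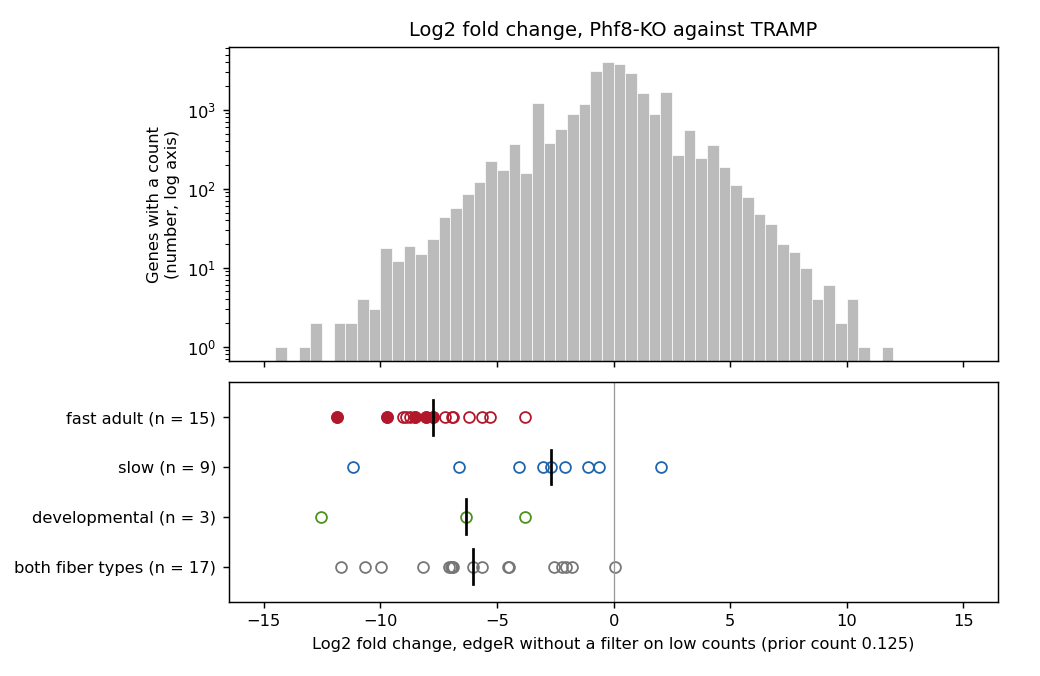
Log2 fold change of Phf8-KO against TRAMP without a filter on low counts: the histogram holds every gene with a count (number of genes, log axis), and below it each circle is a member, by fiber type, filled where edgeR's quasi-likelihood test called it, with a bar at the median. The medians are -7.74 for fast adult, -2.70 for slow, -6.32 for developmental genes and -6.04 for genes of both fiber types.

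The myosin heavy chains, the motor proteins that set how fast a fiber shortens, went from 437 CPM in TRAMP to 1.01 in Phf8-KO1 and 2.26 in Phf8-KO2 when summed. Myh4, the fastest adult isoform, had 7654 counts in TRAMP, 19 in Phf8-KO1 and 24 in Phf8-KO2. These are 265, 0.713 and 0.724 CPM, giving a log2 fold change of -8.52 (SE 0.21, edgeR adjusted p = 0.030). Myh1, the other abundant fast isoform, had 4166 counts in TRAMP and 1 in each Phf8-KO pool. Its TRAMP level was 4309 times the pooled Phf8-KO level (95% counting interval 1192 to 35592), and its log2 fold change was -11.90 (SE 0.28, edgeR adjusted p = 0.030). Myh1 passed the filter through TRAMP alone, so it could be called lower only. Its counting interval is far wider than its SE. The SE and the edgeR adjusted p thus understate the error of 1 count per Phf8-KO pool. In both genes the Phf8-KO pools lay together, far below TRAMP. Of the exon bases of Myh1, 8.11% were overlapped by the opposite-strand gene Myhas, while those of Myh4 were overlapped by no annotated gene. Myh2, of the remaining fast fiber type, had only 53 counts in TRAMP and 0 in both Phf8-KO pools. It was 36.5-fold lower at the bound of 3 counts (lower 95% counting limit 28.7).

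Developmental heavy chains were also present in TRAMP. Myh8, the perinatal isoform, had 741 counts (25.6 CPM) there and 0 in both Phf8-KO pools (edgeR adjusted p = 0.101). It was 511-fold lower at the bound of 3 counts (lower 95% counting limit 415). Myh3, the embryonic isoform, had 16, 2 and 0 counts. Myh7, the slow isoform shared with heart, behaved differently, with 6 counts in TRAMP, 5 in Phf8-KO1 and 50 in Phf8-KO2. Its log2 fold change of 2.02 (SE 1.67, edgeR adjusted p = 0.48) came from Phf8-KO2, and was -0.13 without that pool. The exons of Myh7 were overlapped over 13.3% by 3 opposite-strand genes, Mhrt among them. Myh3, Myh2, Myh1, Myh4 and Myh8 lie in this order on the plus strand of chromosome 11, from 67078300 to 67308634 of GRCm38, and Myh7 lies on chromosome 14 from 54970684 to 54994626. Reads shared by these related genes may have been split or dropped by the counting.

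Light chains, which stiffen and tune the myosin neck, followed the heavy chains. Mylpf, the fast regulatory chain, had 5913, 113 and 194 counts in TRAMP, Phf8-KO1 and Phf8-KO2, and Myl1, the fast essential chain, had 3793, 13 and 1. Both lay well below TRAMP in each Phf8-KO pool, but neither was called by edgeR (adjusted p = 0.101 for both), while DESeq2 called both lower. Myl3, the slow essential chain, had 287 counts in TRAMP and 0 in either Phf8-KO pool. It was 198-fold lower at the bound of 3 counts (lower 95% counting limit 160). Myl2, the slow regulatory chain, had 12 counts in TRAMP and 0 elsewhere, and did not pass the filter.

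Among the troponins, the calcium switch of the thin filament, Tnnt3 was the most abundant member by count in TRAMP. This fast troponin T had 10941 counts in TRAMP, 10 in Phf8-KO1 and 16 in Phf8-KO2, or 378, 0.375 and 0.483 CPM. Its log2 fold change was -9.76 (SE 0.26, edgeR adjusted p = 0.030), and none of its exons was overlapped by another annotated gene. Tnnt3 lies on chromosome 7 from 142498836 to 142516009, plus strand. Its neighbor Tnni2, the fast troponin I, had 5442, 26 and 208 counts, 48.1-fold lower with the pools combined (edgeR adjusted p = 0.105).

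Tnnc2, the fast troponin C, had 6681 counts in TRAMP, 830 in Phf8-KO1 and 46 in Phf8-KO2. The Phf8-KO pools were 22.4-fold apart (95% counting interval 16.7 to 30.9), and the log2 fold change of -3.83 was not called (SE 1.64, edgeR adjusted p = 0.24). In the GENCODE annotation, 74.0% of its exon bases were overlapped by the opposite-strand cell-cycle gene Ube2c, which had 262, 1023 and 975 counts. In RefSeq the spans of these genes do not meet. Ube2c was high in both Phf8-KO pools and Tnnc2 in Phf8-KO1, and the part of the overlap in these counts was not tested. The slow troponins were scarce. Tnnt1 had 122, 14 and 47 counts, Tnni1 had 9, 1 and 1, and Tnnc1 (shared with heart) had 17, 18 and 3, and none of them was called.

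On the actin filament, Neb (nebulin, the thin filament ruler) had 2002 counts in TRAMP, 28 in Phf8-KO1 and 5 in Phf8-KO2, 125-fold lower with the pools combined and called by DESeq2 but not by edgeR (adjusted p = 0.101). Actc1, the actin of heart and developing muscle, had 209, 3 and 2 counts. Acta1, the adult skeletal actin, stood apart with 3981 counts in TRAMP, 1689 in Phf8-KO1 and 83 in Phf8-KO2. Its levels were 138, 63.4 and 2.50 CPM, so that Phf8-KO1 lay nearer to TRAMP than to Phf8-KO2 on the log scale, and its log2 fold change was -2.07 (SE 1.68, edgeR adjusted p = 0.47). Smooth muscle markers summed to 733 CPM in TRAMP, 5541 in Phf8-KO1 and 451 in Phf8-KO2, and their part in the Acta1 counts was not tested.

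At the Z-disc, where thin filaments of neighboring sarcomeres are anchored, the 6 genes summed to 166 CPM in TRAMP, 3.04 in Phf8-KO1 and 3.59 in Phf8-KO2. DESeq2 called 5 of them lower and edgeR none, although all 6 were lower in each Phf8-KO pool. Actn3, the fast alpha-actinin, had 1324, 16 and 6 counts, and Actn2, the alpha-actinin of all fibers and of heart, had 149, 24 and 28. Myoz1, the fast calsarcin that tethers calcineurin, had 1192, 0 and 5 counts. Tcap, the titin cap, had 858, 0 and 6 counts and was the Z-disc gene that DESeq2 did not call (adjusted p = 0.093). Ldb3 had 596, 33 and 19 counts. Myot had 679, 8 and 55, with the Phf8-KO pools 5.53-fold apart (95% counting interval 2.62 to 13.4).

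Titin, the giant spring between Z-disc and M-band, had 3587 counts in TRAMP, 6 in Phf8-KO1 and 1 in Phf8-KO2 (Ttn, 1060-fold lower with the pools combined, 95% counting interval 514 to 2638). Mybpc2, the fast myosin-binding protein C, had 1213, 16 and 3 counts, and Myom2, the fast M-band myomesin, had 378, 1 and 4. Smyd1, a muscle methyltransferase and myosin chaperone, had 282, 8 and 0. These 4 genes were near the floor in both Phf8-KO pools. Others of this role kept more. Mybpc1, the slow counterpart of Mybpc2, had 1264 counts in TRAMP, 351 in Phf8-KO1 and 7 in Phf8-KO2, a 62.4-fold gap between the Phf8-KO pools (95% counting interval 29.9 to 156). Myom1 had 1044, 437 and 154 counts, and Myom3, found mainly in slow and intermediate fibers, had 47, 25 and 18. All 7 genes of this role were lower in both Phf8-KO pools, edgeR called none of them, and DESeq2 called Ttn, Mybpc2 and Myom2.

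In calcium handling, all 5 genes lay at or under 0.483 CPM in both Phf8-KO pools. They summed to 196 CPM in TRAMP, 0.975 in Phf8-KO1 and 1.36 in Phf8-KO2, and DESeq2 called all 5 lower. Atp2a1, the calcium pump SERCA1 of fast fibers, had 2741, 10 and 16 counts, which are 94.8, 0.375 and 0.483 CPM (log2 fold change -7.76, SE 0.26, edgeR adjusted p = 0.040). It lies on chromosome 7 from 126445858 to 126463108, minus strand, and the opposite-strand gene Rabep2 overlapped 21.9% of its exon bases. Rabep2 had 669, 878 and 1291 counts, and the part of the overlap in the counts of Atp2a1 was not tested. Pvalb, the calcium buffer parvalbumin of the fastest fibers, lies on chromosome 15 from 78191114 to 78206400 and had 1690, 5 and 8 counts. Its log2 fold change was -8.05 (SE 0.30, edgeR adjusted p = 0.044), but it too passed the filter through TRAMP alone. The ratio of TRAMP to Phf8-KO for Pvalb was 269, with a 95% counting interval of 157 to 506. Casq1, the calcium store protein of the fast reticulum, had 795, 7 and 15 counts. Ryr1, the calcium release channel, had 287, 3 and 1, and Cacna1s, the voltage sensor that opens it, had 150, 1 and 5.

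Energy genes split in the same manner. Ckm, the muscle creatine kinase, had 7813 counts in TRAMP, 98 in Phf8-KO1 and 26 in Phf8-KO2, and its mitochondrial partner Ckmt2 had 996, 0 and 1. Cox6a2, the striated muscle subunit of cytochrome c oxidase, had 412 counts in TRAMP and 0 in both Phf8-KO pools. It was 284-fold lower at the bound of 3 counts (lower 95% counting limit 230). Ampd1, the muscle AMP deaminase, had 257, 1 and 3. All 4 were called lower by DESeq2, and each had an edgeR adjusted p of 0.101. Mb, the oxygen store myoglobin, kept more, with 6287, 220 and 568 counts. It was 16.5-fold lower with the pools combined (95% counting interval 15.3 to 17.8), and 31.9% of its exon bases were overlapped by Apol6 (124, 41 and 29 counts) or Gm49540, whose part in its counts was not tested. Eno3, the muscle enolase, had similar counts in the 3 pools, 41, 33 and 56 (log2 fold change 0.05, SE 0.68, edgeR adjusted p = 0.97, ratio of TRAMP to Phf8-KO 0.953 with a 95% counting interval of 0.642 to 1.39). Its RefSeq span shares 3675 bases with that of Pfn1, a gene with 48, 624 and 123 counts. Pygm, the muscle glycogen phosphorylase, had 10, 4 and 0 counts.

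Compared per kilobase of exon, fast adult isoforms predominated in most families in the TRAMP pool. The highest levels there were those of Tnnc2 (289 CPM per kilobase), Tnnt3 (239), Mylpf (193), Mb (146) and Tnni2 (126), and Myh7, at 0.0241 CPM per kilobase, ranked last of the 44. Fast adult isoforms made up 96.7% of the myosin heavy chain signal per kilobase, with 63.6% from Myh4, 32.8% from Myh1 and 0.371% from Myh2. Developmental isoforms made up 3.28% and slow Myh7 0.0348%. Fast shares were 98.1% in light chains, 99.2% in troponin T, 99.9% in troponin I and 99.8% in troponin C. Other families were mixed. Myosin-binding protein C was 54.6% fast and 45.4% slow per kilobase, but 49.0% fast and 51.0% slow by counts alone. Among the myomesins, 28.4% was the fast Myom2, 66.4% Myom1 and 5.18% the slow Myom3.

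In the Phf8-KO pools the few counts left had other shares in some families. Of 75 myosin heavy chain counts in Phf8-KO2, 50 were Myh7 (66.7%, 95% exact binomial interval 54.8 to 77.1), against 5 of 27 in Phf8-KO1 (18.5%, interval 6.30 to 38.1) and 6 of 12636 in TRAMP. Slow Tnnt1 gave 14 of 24 troponin T counts in Phf8-KO1 (58.3%, interval 36.6 to 77.9) and 47 of 63 in Phf8-KO2 (74.6%, interval 62.1 to 84.7), against 122 of 11063 in TRAMP. Mybpc1 gave 351 of 367 counts of its family in Phf8-KO1 and 7 of 10 in Phf8-KO2. The fast Actn3 gave 16 of 40 alpha-actinin counts in Phf8-KO1 and 6 of 34 in Phf8-KO2, against 1324 of 1473 in TRAMP. The fast Myom2 gave 1 of 463 and 4 of 176 myomesin counts, against 378 of 1469 in TRAMP. Light chains, troponin I and troponin C stayed fast, with the part of Ube2c in the Tnnc2 counts not tested. Fast light chains gave 126 of 126 counts in Phf8-KO1 and 195 of 195 in Phf8-KO2, the fast Tnni2 gave 26 of 27 and 208 of 209 troponin I counts, and the fast Tnnc2 gave 830 of 848 and 46 of 49 troponin C counts. These intervals cover counting error only.

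**Figure D3:**
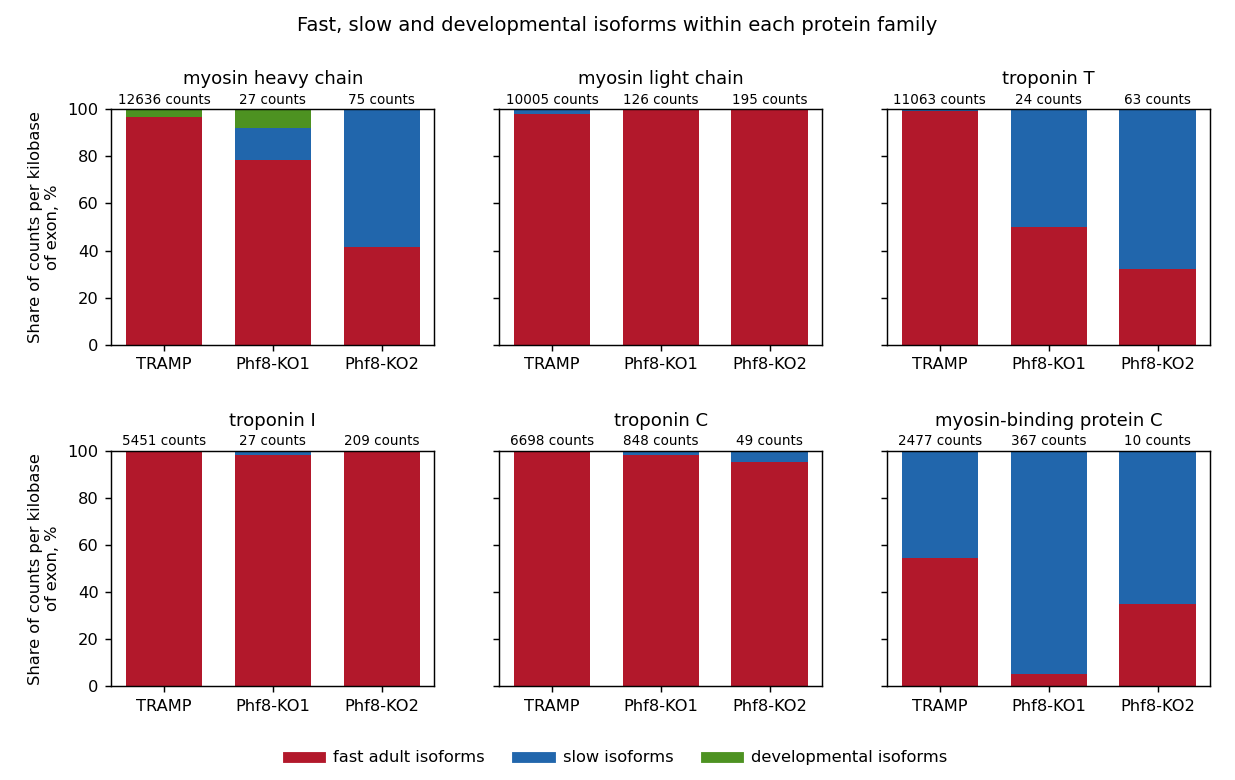
Share of counts per kilobase of exon (%) taken by fast adult, slow and developmental isoforms in 6 protein families, for each pool, with the family's raw counts above each bar. Fast adult isoforms take 96.7% of myosin heavy chain in TRAMP and 41.7% in Phf8-KO2, where the bar rests on 75 counts.

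Across fiber types, the fast adult genes summed to 1867 CPM in TRAMP, 40.0 in Phf8-KO1 and 16.5 in Phf8-KO2. All 15 were lower in both pools, 5 were called by edgeR and 14 by DESeq2. The 9 slow genes summed to 279, 23.8 and 20.9 CPM, with 0 called by edgeR and 2 (Myl3 and Mb) by DESeq2. These sums rested largely on Mb (217, 8.25 and 17.1 CPM) and Mybpc1 (43.7, 13.2 and 0.211 CPM), so they are no level of the slow myosins and troponins. The 3 developmental genes summed to 33.4, 0.188 and 0.0603 CPM, with 0 called by edgeR and 2 by DESeq2, and the 17 genes of both fiber types summed to 801, 89.0 and 13.4 CPM, with 0 and 11 called. The medians of -7.74 for fast and -2.70 for slow genes are given as descriptions, since 6 of the 9 slow genes had under 5 CPM in TRAMP and low counts limit the fold that can be seen.

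Between the Phf8-KO pools, 18 of the 44 genes differed beyond the 95% counting interval, 12 higher in Phf8-KO1 and 6 higher in Phf8-KO2. Over all 25757 genes with a count, 42.9% differed between these pools in this way, so the count is no particular feature of the muscle genes. In Phf8-KO1, Acta1 took 41.4% of the 4079 counts of the set, Tnnc2 20.3%, Myom1 10.7% and Mybpc1 8.61%, together 81.1%. In Phf8-KO2, Mb took 33.7% of 1686 counts, Tnni2 12.3%, Mylpf 11.5% and Myom1 9.13%, together 66.7%. The leading 4 genes in TRAMP, which were Tnnt3, Ckm, Myh4 and Tnnc2, took 38.4% of 86137 counts. Without the 7 genes that lead in the Phf8-KO pools, a choice made after their values were seen, the remaining 37 summed to 1921 CPM in TRAMP, 15.5 in Phf8-KO1 and 12.9 in Phf8-KO2. Since the Phf8-KO pools alone set the spread, edgeR could hardly call a gene on which they lie far apart, and the 5 genes called were all among those 37.

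**Figure D4:**
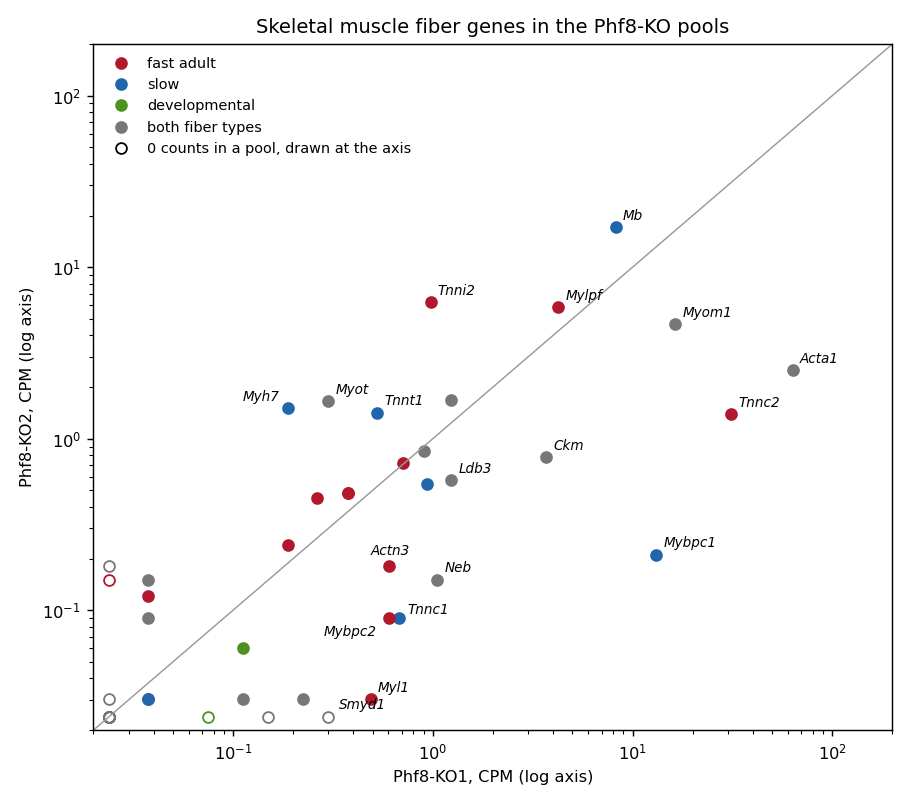
Level of each of the 44 genes in Phf8-KO1 (x axis) against Phf8-KO2 (y axis), both in CPM on log axes, colored by fiber type, with the line of equal levels and the names of the 18 genes whose ratio lies beyond its 95% counting interval. Acta1, Tnnc2 and Mybpc1 lie far on the Phf8-KO1 side, and Tnni2, Myh7 and Myot on the Phf8-KO2 side.

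Other genes of the same machinery differed less as a group. Of 37 further sarcomere and triad genes, 28 were lower in both Phf8-KO pools and 4 were higher in both, and their median log2 fold change was -3.78. They summed to 846 CPM in TRAMP, 1216 in Phf8-KO1 and 701 in Phf8-KO2, so that the sum was highest in Phf8-KO1. Much of the sum came from genes named after their values were seen. These were Tpm2 (102, 457 and 34.2 CPM), Tpm3 (125, 227 and 287), Atp2a2 (163, 306 and 273) and Fbxo32 (199, 111 and 70.6). In edgeR's quasi-likelihood test 0 of the 37 genes were called, although 20 lower and 2 higher ones had an unadjusted p under 0.05. DESeq2 called 15 of the 37 lower and 1 higher. Klhl41, a thin filament chaperone, had 530, 3 and 6 counts. Xirp2, of the intercalated disc and myotendinous junction, had 746, 2 and 0. Cmya5 had 881, 34 and 25, and Hrc, a calcium-binding protein of the reticulum, had 428, 12 and 9. Of 18 further energy genes, many of them used in all tissues, 0 were called by edgeR, 9 lower and 1 higher ones had an unadjusted p under 0.05, while DESeq2 called 5 lower and 0 higher. They summed to 1844 CPM in TRAMP, 1470 in Phf8-KO1 and 2586 in Phf8-KO2. Pgam2, the muscle phosphoglycerate mutase, had 466, 1 and 0 counts, Phkg1 had 108, 0 and 0, and Cox8b had 128, 2 and 2. Pfkm, the muscle phosphofructokinase, had 1603, 885 and 1097, and Gys1, the muscle glycogen synthase, named after its values were seen, had 825, 1270 and 2398.

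Markers of other tissues moved with the muscle genes in part. The 10 adipocyte markers summed to 1251 CPM in TRAMP, 67.8 in Phf8-KO1 and 44.7 in Phf8-KO2, and 9 were lower in both pools, 6 called lower by DESeq2 and 0 by edgeR (9 lower at an unadjusted p under 0.05). The 5 erythroid markers summed to 394, 98.4 and 67.9 CPM, with 5 lower in both pools, 4 called by DESeq2 and 0 by edgeR (5 lower at an unadjusted p under 0.05). No marker of either list was at 0 in TRAMP. Smooth muscle markers, 10 genes detected in every pool, were highest in Phf8-KO1, and 0 were lower in both pools. Fibroblast markers summed to 1724, 1688 and 703 CPM, of which Dcn gave 1473, 639 and 214, whereas Col1a1 (8.20, 163 and 97.1 CPM) and Col1a2 (41.8, 314 and 181 CPM) were called higher by DESeq2. Endothelial markers summed to 72.3, 47.8 and 89.5 CPM, and Schwann cell markers to 66.0, 111 and 131. Whether the tumor pieces differed in the muscle, fat or blood they held was not tested, and with 1 TRAMP pool such a difference and the genotype cannot be told apart.

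**Figure D5:**
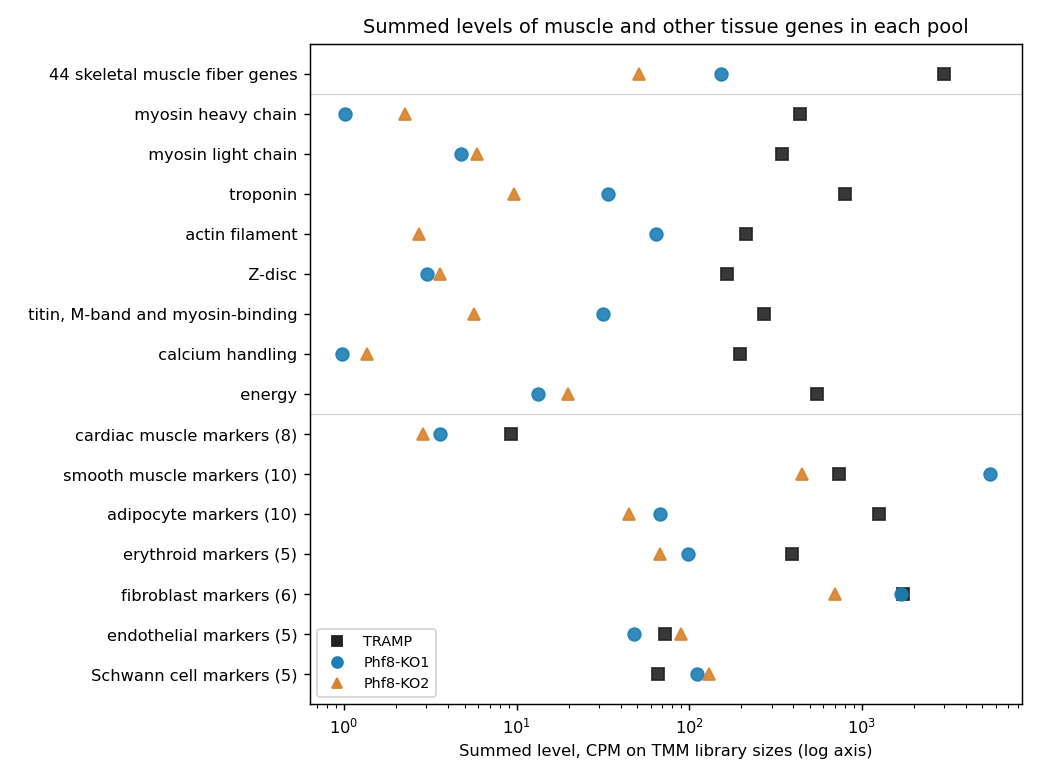
Summed level (CPM, log axis) of the 44 skeletal muscle fiber genes, of each role among them, and of marker lists of other tissues (number of genes in brackets), in TRAMP (squares), Phf8-KO1 (circles) and Phf8-KO2 (triangles). All 8 roles and the adipocyte, erythroid and cardiac lists are highest in TRAMP, the fibroblast list is nearly level in TRAMP and Phf8-KO1, and smooth muscle is highest in Phf8-KO1 at 5541 CPM.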

How the data were processed

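RNA-seq covered 1 TRAMP library and 2 Phf8-KO libraries from tumors, each a pool of 3 mice. The authors filtered the reads, aligned them with HISAT2 (GRCm38) and used HTSeq to obtain the raw counts per gene that were deposited. Versions, annotation release and strandedness are not given in the sources used here, so reads of overlapping genes cannot be told apart.

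Counts were fitted over all genes with edgeR 4.0.16 in R 4.3.3 (quasi-likelihood test, TMM scaling, filterByExpr by group, 1 residual degree of freedom, Benjamini-Hochberg adjustment over 18216 genes), with DESeq2 1.42.0 and limma 3.58.1 as alternatives. Levels are CPM on TMM library sizes. Exon lengths and overlaps came from GENCODE M21, and start windows from RefSeq. Ratio intervals (95%) were exact conditional binomial intervals, and they and the floor of 3 counts cover counting error only. The test code was run on simulated counts with smaller changes than those of the genes called here, so that run is no check of these calls. The rule named all 44 members and up to 4 genes of smallest p from each of 11 other lists, not all of which are reported. The members and lists were chosen with earlier results of these data known. Named after their values were seen were the tissue genes Krt8, Krt18, Hoxb13 and Pbsn and the overlapping genes Ube2c, Rabep2, Apol6 and Pfn1. So were the list genes Gys1, Tpm2, Tpm3, Atp2a2, Fbxo32, Myocd, Myod1, Myf5, Myog, Pax7, Myl7, Nppa and Myh6. Mymk and Mymx were matched by older symbols. No columns of the count table were left out.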

Additional observations from a re-analysis of the deposited data

How the results depend on the processing

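The number of members called lower, 5, became 8 with library size scaling, 32 without a filter on low counts, 29 with DESeq2, 0 with a mean CPM of at least 1, 0 with limma-voom, and 3 without members whose exons another gene overlaps, an alternative chosen after seeing the data. DESeq2 called 23 genes of the other muscle lists lower and 3 higher, against 0 and 0. Its share of higher calls over all genes was not counted, so the higher calls have no share beside them. Other settings moved medians of log2 fold changes in size but not in sign. Over all members the median was -5.26 with a prior count of 5 and lay between -7.18 and -6.24 when a Phf8-KO pool was left out. For fast adult genes it was -7.95 with upper quartile scaling, -6.82 and -6.37 with prior counts of 1 and 5, and between -8.04 and -7.90 without a Phf8-KO pool. For slow genes these values were -2.89, -2.34, -1.78 and between -3.16 and -2.89, with -2.11 over genes that passed the filter. Developmental genes had -4.84 with a prior count of 5, and genes of both fiber types had -5.77 and -4.96 with prior counts of 1 and 5, between -6.51 and -6.18 without a Phf8-KO pool, and -6.47 over genes that passed the filter. The TRAMP sum was 3192 CPM with upper quartile scaling, 2876 with library size scaling and 1603 without overlapped members. Fast shares in TRAMP were 94.0% without a length correction and 94.1% with the longest coding transcript (chosen after seeing the data) for myosin heavy chains, 98.9% and 98.9% for troponin T, and 97.0% and 97.2% for light chains. Signs reversed without Phf8-KO2 for Myh7 (-0.13, or 2.89 without Phf8-KO1), Tnnc1 (0.21, or -2.60 without Phf8-KO1) and Eno3 (-0.18, or 0.30 without Phf8-KO1), and for Eno3 with upper quartile scaling (-0.11). Of 406 values of single members under alternatives, 334 kept direction and side of the threshold, 57 passed it newly, 11 lost it and 4 reversed. Leaving out a Phf8-KO pool leaves no residual degrees of freedom, so those values have no test. The causes were not tested. No paired analysis was possible because there was only 1 TRAMP pool. Depth limits members near the floor of 3 counts, and 1 TRAMP pool leaves its own spread unknown.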

Other observations

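Regulators of muscle identity gave few counts. Myf6, the myogenic factor of mature fibers, had 96 counts in TRAMP and 0 in both Phf8-KO pools (DESeq2 called it lower, edgeR adjusted p = 0.103). Myod1 had 10, 0 and 0 counts. Myf5, Myog and Pax7, the factors of muscle progenitors and differentiating myoblasts, had 0 counts in all 3 pools, where 3 counts correspond to 0.104, 0.113 and 0.0905 CPM. Of the 16 genes in this list, 0 were called by edgeR in either direction (at an unadjusted p under 0.05, 3 were lower and 2 higher), while DESeq2 called Myf6, Six4 and Mef2c lower and Srf and Myocd higher. Srf, a factor used by smooth and striated muscle alike, stood at 17.4 CPM in TRAMP, 44.6 in Phf8-KO1 and 48.2 in Phf8-KO2. The list summed to 287, 287 and 265 CPM.

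The 11 genes of the neuromuscular junction summed to 9.34 CPM in TRAMP, 11.4 in Phf8-KO1 and 14.3 in Phf8-KO2. In both Phf8-KO pools 7 of the 11 were lower and 2 higher, and the median log2 fold change was -1.36. Of the 11 genes, 0 were called by edgeR or DESeq2 (at an unadjusted p under 0.05, 1 was lower and 1 higher). Chrnb1, an acetylcholine receptor subunit, had 102, 239 and 335 counts (3.53, 8.97 and 10.1 CPM). Chrnd, another subunit, had 35, 6 and 9 counts, and Scn4a, the muscle sodium channel, had 42, 0 and 4. The 8 cardiac muscle markers summed to 9.31, 3.60 and 2.87 CPM, with 0 called by either tool (at an unadjusted p under 0.05, 2 were lower and 0 higher). The atrial genes Myl7 (0, 5 and 7 counts) and Nppa (0, 1 and 0) and the heart myosin Myh6 (4, 1 and 4) were at or near 0, Tnni3, the heart troponin I, had 201, 29 and 74 counts, and Nppb had 28, 0 and 0.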
